A study of Mus musculus with 8 samples.

Results

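Expression of 8 genes, 5 chemokines and 3 chemokine receptors, was followed in the mouse acute myeloid leukemia line FT1CL, with and without Cop1. The ligands are Cxcl2, Ccl3, Ccl4, Ccl6 and Ccl9 and the receptors are Ccr1, Cxcr2 and Cxcr4. They were found by matching the Ensembl gene identifiers of a table of exon junctions to these symbols, and all 8 of them were among the 13378 genes with a junction there and among the 11003 genes tested. RNA was sequenced in 4 Cop1 ko/ko libraries, from cells given 4-hydroxytamoxifen to delete the gene, and in 4 Cop1 +/+ libraries, from cells with no treatment. Genotype and tamoxifen therefore changed together and cannot be told apart. All 8 libraries share the same origin: marrow of 8-week-old mice with a conditional Cop1 allele and Rosa26-Cre-ERT2, a broadly expressed Cre that tamoxifen activates, taken after fluorouracil at 150 mg/kg and infected with a retrovirus that carries Trib1. The cells grew in 10% serum with interleukin-3 at 5 ng/mL. Separate cultures are not named in the labels, nor whether the line is 1 clone. The p-values below thus reflect only how much these libraries vary, which could be technical variation.

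Chemokines are small secreted proteins that guide leukocytes along a gradient through receptors coupled to inhibitory G proteins. Cxcl2 acts on Cxcr2 and draws neutrophils, Ccl3 and Ccl4 are macrophage inflammatory proteins, of which Ccl3 acts on Ccr1, and Ccl6 and Ccl9 are rodent CC chemokines made by myeloid cells, with Ccr1 as a receptor. In marrow, Cxcr4 keeps immature granulocytes near cells that make Cxcl12, while Cxcr2 favours the release of mature neutrophils.

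All 5 ligand genes lie in 2 groups of chemokine genes. Positions are from Gencode release M21 on mouse build mm10. Cxcl2 (ENSMUSG00000058427) is on the plus strand of chromosome 5, from 90903871 to 90905938, in the same group as Cxcl3. On chromosome 11 lie, in order, Ccl9 (ENSMUSG00000019122, minus strand, 83572919 to 83578636), Ccl6 (ENSMUSG00000018927, minus strand, 83587882 to 83593087), Ccl3 (ENSMUSG00000000982, minus strand, 83647844 to 83649355) and Ccl4 (ENSMUSG00000018930, plus strand, 83662584 to 83664683). The receptor genes are elsewhere. Cxcr2 (ENSMUSG00000026180) is on the plus strand of chromosome 1 from 74153989 to 74161246, Cxcr4 (ENSMUSG00000045382) on the minus strand of chromosome 1 from 128588199 to 128592293, and Ccr1 (ENSMUSG00000025804) on the minus strand of chromosome 9 from 123962124 to 123968692.

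The promoters of 3 ligands are shown: that of Cxcl2, which had the largest fold change of the 8 genes, and those of Ccl3 and Ccl9, nearby ligand genes on chromosome 11 that also passed the test. They are RefSeq sequences on GRCm38.p6 (mm10), written along the gene's strand and ending before the first transcribed base that Gencode gives. Capitals mark matches to the searched motifs. RefSeq promoters were matched for 7 of the 8 genes, all but Ccl4.
Cxcl2 (chr5:90903649-90903870, plus strand, 222 bases): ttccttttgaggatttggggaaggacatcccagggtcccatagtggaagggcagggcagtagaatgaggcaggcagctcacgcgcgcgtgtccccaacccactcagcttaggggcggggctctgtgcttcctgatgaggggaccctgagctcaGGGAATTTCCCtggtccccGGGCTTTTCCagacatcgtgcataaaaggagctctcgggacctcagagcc
Ccl3 (chr11:83649379-83649628, minus strand, 250 bases): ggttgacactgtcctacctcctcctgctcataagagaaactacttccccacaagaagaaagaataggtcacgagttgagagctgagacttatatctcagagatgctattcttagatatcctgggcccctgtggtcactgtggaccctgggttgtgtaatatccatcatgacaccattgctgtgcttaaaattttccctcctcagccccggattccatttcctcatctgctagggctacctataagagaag
Ccl9 (chr11:83578637-83578886, minus strand, 250 bases): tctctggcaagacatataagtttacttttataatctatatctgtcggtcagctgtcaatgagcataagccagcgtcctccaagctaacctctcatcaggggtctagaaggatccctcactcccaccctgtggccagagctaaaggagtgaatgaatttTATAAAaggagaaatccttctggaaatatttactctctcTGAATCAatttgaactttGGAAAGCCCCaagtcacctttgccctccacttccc

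The 250 bases before each RefSeq start were searched for 4 motifs, and positions are counted back from -1, the base before that start. The kappaB letters, GGG and TTCC with any 3 bases between them, were searched on both strands and found in 4.65% of 32851 mouse promoters, the AP-1 letters TGANTCA, on both strands, in 6.75%, the C/EBP letters TTGCNNAA, on both strands, in 9.56%, and the TATA letters TATAAA, on the gene's strand only, in 7.59%. In Cxcl2 the kappaB letters matched at positions -97 to -88 and -78 to -69 on the gene's strand. On the other strand they matched at -96 to -87, a run that overlaps the first. The Cxcl2 sequence shown holds 222 of the 250 bases searched and stops short of the RefSeq start. Its positions are therefore not counted from the end of the shown sequence. In Ccl9 the TATA letters stood at -92 to -87, the AP-1 letters at -53 to -47 and the kappaB letters, on the other strand, at -35 to -26. Cxcr4 had the TATA letters at -30 to -25. No match to these letters was in the windows of Ccl3, Ccl6, Ccr1 or Cxcr2, and the C/EBP letters were in none of the 7. A match is a run of letters and not a measured binding site.

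Levels are junction reads per 1000000 (RPM): reads that cross an exon junction of the gene, summed over its junctions and divided by all junction reads of that library. The knockout libraries held 17333302 to 22469109 such reads and the wild-type libraries 17811247 to 20981993. Cop1 itself had 81.3, 70.3, 76.5 and 66.7 RPM in knockout libraries 1 to 4, against 159, 162, 166 and 162 RPM in wild-type libraries 1 to 4 (log2 fold change -1.13, SE 0.08, adjusted p = 4.91e-04). All knockout libraries were below all wild-type libraries, but each of the 19 Cop1 junctions was still read in every knockout library. The most reduced had 0.623 to 1.50 RPM in knockout and 5.11 to 6.24 RPM in wild type. Both libraries numbered 4 stood apart from their groups in the correlation of log2 levels across genes. It was 0.934 to 0.941 between knockout library 4 and the other knockout libraries. Between wild-type library 4 and the other wild-type libraries it was 0.948 to 0.956, against 0.969 to 0.981 among libraries 1 to 3 of a group. Knockout library 4 correlated at 0.935 to 0.943 with the wild-type libraries, and so was no closer to its own group. Of the marker lists, 7 of 10 tested neutrophil genes passed as higher in knockout cells, 5 of 8 mast cell and basophil genes and 2 of 7 monocyte and macrophage genes. None passed as higher among the tested eosinophil, T and NK cell, B cell, erythroid, megakaryocyte and progenitor genes, and 1 each of the T and NK cell, erythroid and progenitor genes passed as lower. In the same test, described below, 8.49% of all genes tested passed as higher and 12.1% as lower. The labelled cell type, acute myeloid leukemia, was checked against the same lists: mast cell and basophil genes summed to 12098 to 17304 RPM in knockout and 12005 to 13908 RPM in wild type, and progenitor genes to 1009 to 1643 and 1093 to 2104 RPM. The sums of T and NK cell genes (4.44 to 9.61 RPM in knockout, 13.3 to 39.2 RPM in wild type) and of B cell genes (0.878 to 2.83 and 0.952 to 3.38 RPM) were low. Monocyte and macrophage genes summed to 605 to 1477 RPM in knockout and 447 to 837 RPM in wild type, which overlap. Of the 7 tested genes of that list, 4 had a positive log2 fold change, and the 2 that passed were Cd14 and Cybb. Eosinophil genes summed to 28.7 to 125 RPM in knockout and 69.5 to 166 RPM in wild type. Erythroid genes summed to 21.2 to 133 and 53.3 to 131 RPM, and megakaryocyte genes to 518 to 901 and 525 to 861 RPM. Some of these sums came mostly from 1 gene and do not stand for the whole list. In the mast cell and basophil sum Cpa3 averaged 11699 RPM in knockout and 12276 RPM in wild type (adjusted p = 0.69). Itga2b averaged 661 and 743 RPM in the megakaryocyte sum, and Siglecf 74.6 and 123 RPM in the eosinophil sum.

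Cop1 knockout cells had more RNA of 7 of the 8 genes, 4 ligands and all 3 receptors, and the eighth, Ccl6, gave no call. Changes were tested with limma on log2(RPM + 1), knockout minus wild type, with Benjamini-Hochberg adjustment over all 11003 genes and a threshold of 0.05, and all adjusted p-values without another name are from that test. Of all genes tested, 8.49% passed as higher in knockout and 12.1% as lower. For the same 7 genes every knockout library was above every wild-type library, which held for 9.79% of all genes. The median log2 fold change of the 8 genes was 1.56, against -0.07 over all genes tested. As the 8 genes were chosen with earlier results of these data known, these counts and medians are descriptions and no test of the set. With TMM scaling the median over all genes was -0.004, and no member changed direction. In a bulk library, fewer cells of a type and less RNA per cell cannot be told apart. The summed level of the 10 neutrophil marker genes moved with the genotype and differed among the knockout libraries: 5007, 10493, 4486 and 406 RPM in knockout libraries 1 to 4, against 10.7 to 55.0 RPM in wild type. Among these genes Retnlg had no read in any wild-type library. The part of these genes in the differences below was not tested.

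**Figure D1:**
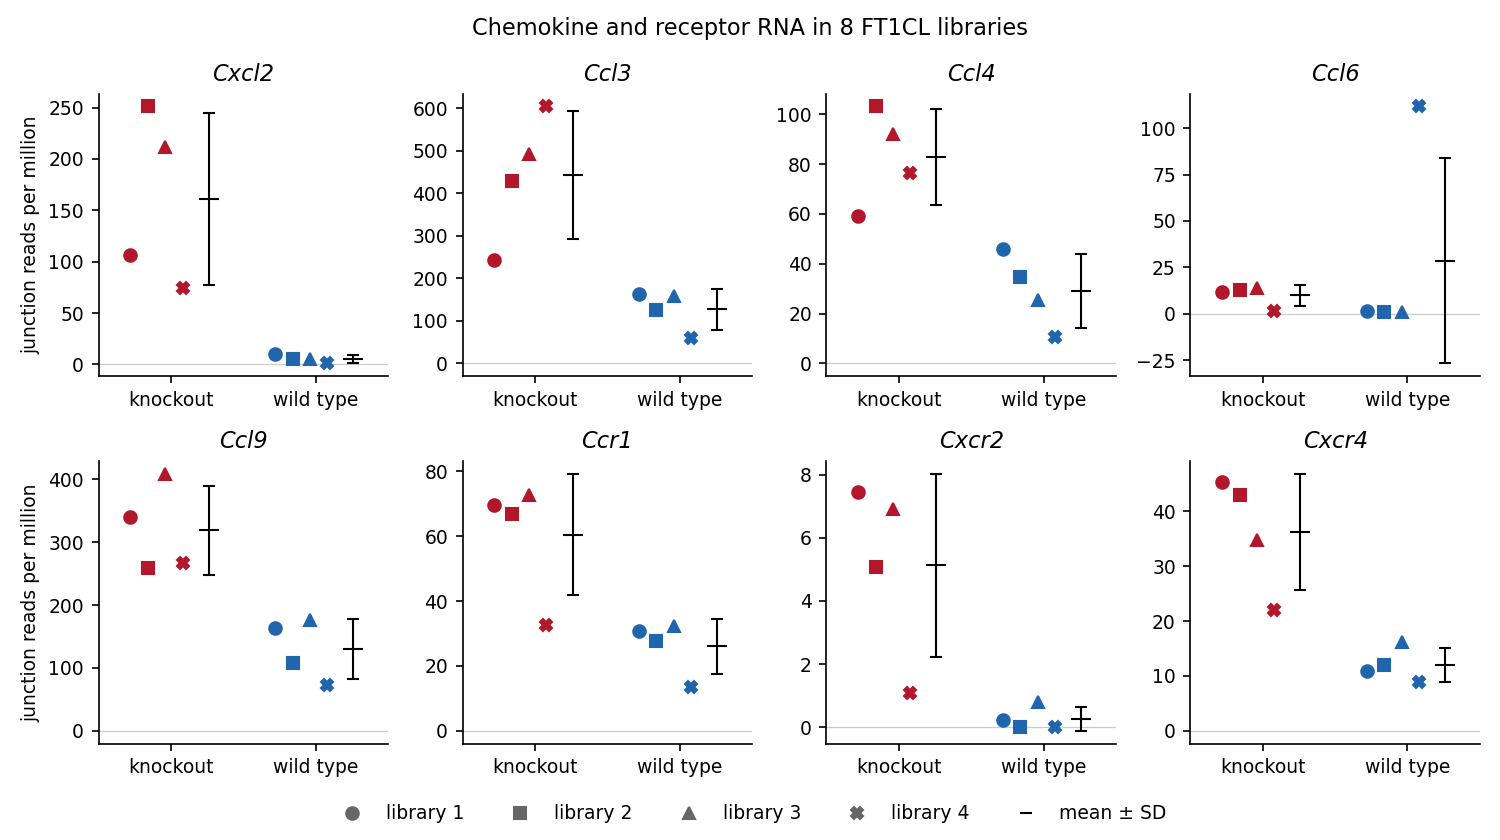
Level of each of the 8 genes in every library, in junction reads per 1000000 on a linear axis, from knockout (left, red) to wild type (right, blue). Marker shapes give the library number and bars the mean ± SD of 4 libraries. The groups do not overlap for 7 genes, and for Ccl6 wild-type library 4 stands at 112 RPM, above the other 7 libraries.

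Cxcl2, a ligand of Cxcr2 that recruits neutrophils, had the largest fold change of the 8 genes and the 22nd highest of the 11003 tested. It had 106, 251, 212 and 74.3 RPM in knockout libraries 1 to 4, against 10.5, 4.88, 5.61 and 1.12 RPM in wild-type libraries 1 to 4. Both libraries numbered 4 were the lowest of their group, and the lowest knockout library was still far above the highest wild-type library. The means were 161 ± 84.1 RPM in knockout and 5.52 ± 3.85 RPM in wild type (SD, n = 4 each), 29.1 times as high, and limma gave a log2 fold change of 4.70 ± 0.56 (SE) at an adjusted p of 0.0023. All 3 of its junctions gave the same picture, with 505 to 1504 reads each in knockout libraries and 5 to 87 in wild-type libraries. Within pairs of libraries with the same number the difference was 3.23, 5.42, 5.01 and 5.15 on the log2(RPM + 1) scale. Of the 1079 stretches of 31 bases in its transcript, 7.41% also occur in Cxcl3, so some reads of these 2 genes could have been shared.

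Ccl3, macrophage inflammatory protein 1 alpha, rose to 244, 430, 492 and 605 RPM in knockout libraries 1 to 4, against 164, 127, 158 and 58.9 RPM in wild-type libraries 1 to 4. Knockout library 4 had the highest Ccl3 of its group, while wild-type library 4 had the lowest. The means were 443 ± 151 RPM in knockout and 127 ± 48.1 RPM in wild type (SD, n = 4 each), 3.49 times as high, and limma gave a log2 fold change of 1.82 ± 0.38 (SE) at an adjusted p of 0.014. Its neighbour Ccl4, macrophage inflammatory protein 1 beta, had 59.2, 103, 92.2 and 76.5 RPM in knockout, against 45.8, 34.6, 25.6 and 10.6 RPM in wild type. The lowest knockout library and the highest wild-type library, both numbered 1, stood nearest to each other. The means of Ccl4 were 82.8 ± 19.2 RPM in knockout and 29.1 ± 14.9 RPM in wild type (SD, n = 4 each), 2.84 times as high, and limma gave a log2 fold change of 1.62 ± 0.40 (SE) at an adjusted p of 0.026. The Ccl4 call ended without knockout library 2 (adjusted p = 0.071), knockout library 3 (0.072) or wild-type library 3 (0.055). Within same-numbered pairs both genes differed least in pair 1 (0.57 for Ccl3 and 0.36 for Ccl4) and most in pair 4 (3.34 and 2.75).

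Ccl9, macrophage inflammatory protein 1 gamma, had 340, 259, 409 and 267 RPM in knockout libraries 1 to 4, against 163, 109, 176 and 73.3 RPM in wild-type libraries 1 to 4. Library 3 was the highest of each group, and the groups did not overlap. The means were 319 ± 70.2 RPM in knockout and 130 ± 48.0 RPM in wild type (SD, n = 4 each), 2.45 times as high, and limma gave a log2 fold change of 1.34 ± 0.28 (SE) at an adjusted p of 0.015. Within same-numbered pairs the difference was 1.05, 1.25, 1.21 and 1.85, most in pair 4. Of its 4 junctions, 1 held nearly all reads, 4398 to 7770 in knockout and 1248 to 3311 in wild type, while the other 3 held 9 to 117 in knockout and 3 to 58 in wild type and overlapped between groups.

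Ccl6, a CC chemokine whose gene lies beside Ccl9, did not pass, and library 4 of each group decided its value. It had 11.5, 12.9, 13.8 and 1.34 RPM in knockout libraries 1 to 4, against 1.24, 1.01, 0.688 and 112 RPM in wild-type libraries 1 to 4. Libraries 1 to 3 did not overlap and were higher in knockout, while library 4 was low in knockout and the highest of all in wild type. The means were 9.89 ± 5.78 RPM in knockout and 28.7 ± 55.4 RPM in wild type (SD, n = 4 each), and the log2 fold change was 0.70 (SE 1.36, adjusted p = 0.76). The difference of the mean levels and that of the mean log2 values thus had opposite signs. Without both libraries numbered 4 the log2 fold change was 2.80 (adjusted p = 3.57e-04), and without wild-type library 4 alone it was 2.16 (adjusted p = 0.063). In wild-type library 4 all 3 junctions of Ccl6 were read often, with 572, 682 and 736 reads from the first to the last. In knockout libraries 1 to 3 the middle junction had 145 to 163 reads, and the first and the last had 31 to 61. Wild-type libraries 1 to 3 had 1 to 11 reads at each.

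**Figure D2:**
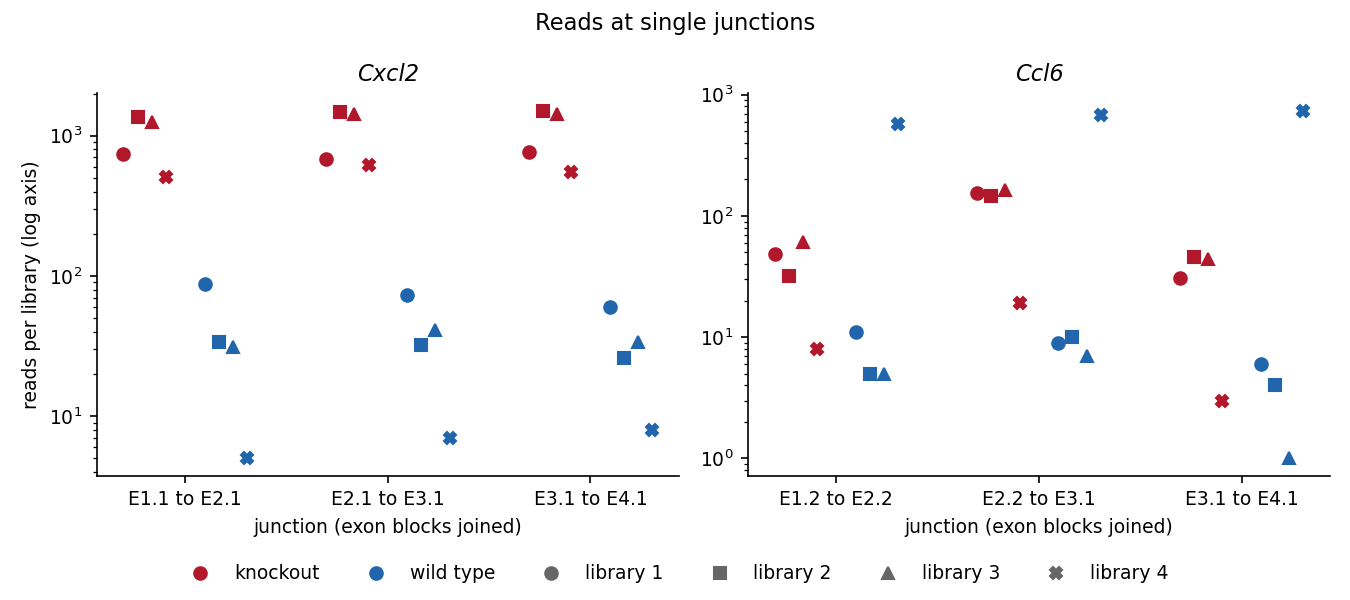
Reads per library at each junction of Cxcl2 (left) and Ccl6 (right), on a log axis, with knockout in red and wild type in blue and the library number as the marker shape. All knockout libraries lie above all wild-type libraries at each Cxcl2 junction, and wild-type library 4 lies highest at each Ccl6 junction with 572 to 736 reads.

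Cxcr2, the receptor of Cxcl2 on neutrophils, was near the limit of detection in wild-type cells. It had 7.46, 5.08, 6.92 and 1.07 RPM in knockout libraries 1 to 4, against 0.238, 0, 0.794 and 0 RPM in wild-type libraries 1 to 4. Knockout library 4 was the lowest of its group and still above every wild-type library. Wild-type libraries 2 and 4 held no read, which allows a level of up to 0.159 and 0.168 RPM (3 reads, counting error only). The means were 5.13 ± 2.89 RPM in knockout and 0.258 ± 0.374 RPM in wild type (SD, n = 4 each), and limma gave a log2 fold change of 2.14 ± 0.46 (SE) at an adjusted p of 0.015. Cxcr2 reached the average of 1 RPM needed for testing only through the knockout libraries. As the level was near the pseudocount, the log2 fold change was 4.17 with a pseudocount of 0.1 RPM, 0.90 with 5 RPM and 4.34 in edgeR on whole reads, each past the threshold.

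Ccr1, a receptor of Ccl3, Ccl6 and Ccl9, had the smallest fold change of the 7 called genes and the call that ended in the most alternatives. It had 69.6, 66.9, 72.8 and 32.6 RPM in knockout libraries 1 to 4, against 30.7, 27.7, 32.2 and 13.6 RPM in wild-type libraries 1 to 4. Library 4 was the lowest of each group, and knockout library 4 was only just above wild-type library 3. The means were 60.5 ± 18.7 RPM in knockout and 26.0 ± 8.50 RPM in wild type (SD, n = 4 each), 2.32 times as high, and limma gave a log2 fold change of 1.19 ± 0.34 (SE) at an adjusted p of 0.039. The difference hardly varied among same-numbered pairs, at 1.16, 1.25, 1.15 and 1.20, and with the number as a block the adjusted p was 0.0016. Without the block the call was lost on leaving out any single library other than knockout library 4 (adjusted p 0.052 to 0.105).

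Cxcr4, the receptor of Cxcl12 that retains granulocytes in marrow, had 45.4, 43.0, 34.7 and 22.0 RPM in knockout libraries 1 to 4, against 10.8, 11.9, 16.2 and 8.98 RPM in wild-type libraries 1 to 4. Library 4 was the lowest of each group and the groups did not overlap. The means were 36.3 ± 10.6 RPM in knockout and 11.997 ± 3.08 RPM in wild type (SD, n = 4 each), 3.02 times as high, and limma gave a log2 fold change of 1.50 ± 0.26 (SE) at an adjusted p of 0.0074.

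**Figure D3:**
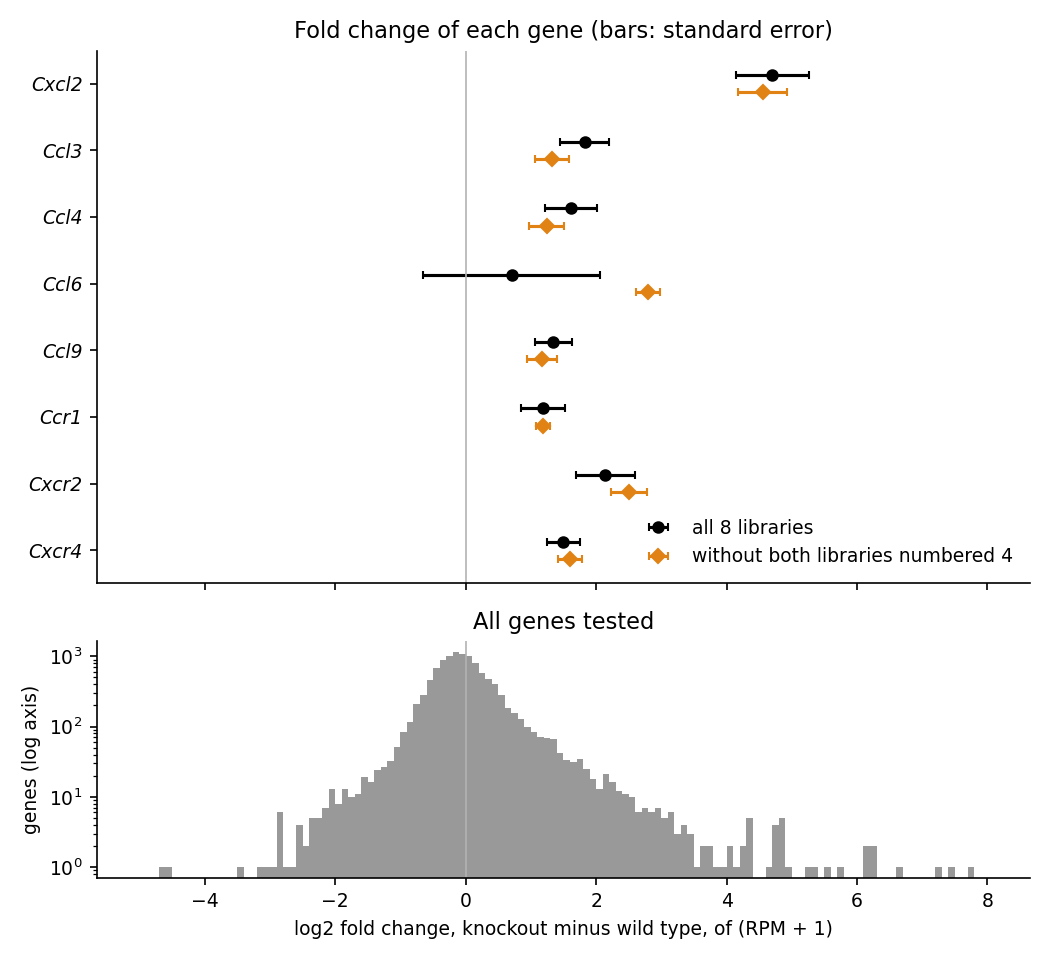
Upper panel: log2 fold change of each gene, knockout minus wild type, with bars for the standard error, from all 8 libraries (black circles) and without both libraries numbered 4 (orange diamonds). Lower panel: the same quantity for all 11003 genes tested, as numbers of genes on a log axis. Ccl6 is at 0.70 with all libraries and at 2.80 without those numbered 4, and the other 7 genes lie between 1.19 and 4.70 with all libraries.

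Libraries with the same number deviated together, so the 4 numbers were also read as pairs. Of the 32 differences, 8 genes in 4 pairs, 31 were higher in knockout, and the exception was Ccl6 in pair 4 at -5.59. For 7 genes all 4 pairs were higher, as for 20.1% of all genes. As the groups of these 7 genes did not overlap, any pairing would give this, and the signs add nothing to that result. The 32 differences are not separate observations. Cxcl2 differed least in pair 1 and Cxcr4 least in pair 3 (1.05, against 1.20 to 1.97). With the number as a block the same count of 7 genes passed as higher, where 12.3% of all genes did, and Ccl3 had adjusted p = 0.026. Without both libraries numbered 4 all 8 genes passed as higher, where 11% of the 10893 genes then tested did.

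**Figure D4:**
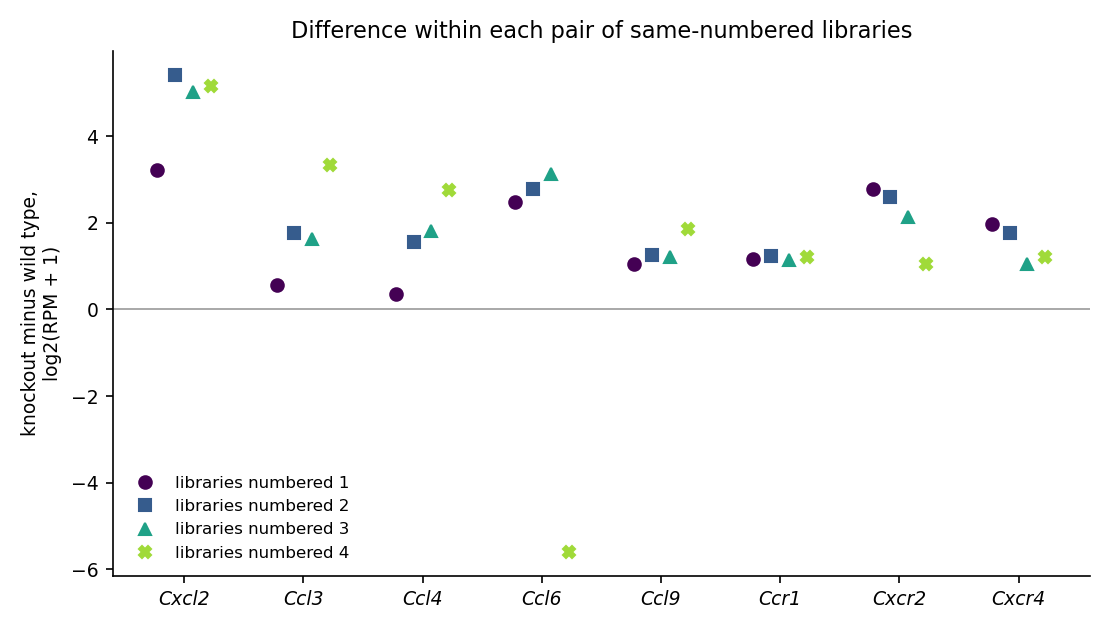
Difference between the knockout and the wild-type library of the same number, on the log2(RPM + 1) scale, for each gene and each of the 4 numbers. Positive values are higher in knockout. All points lie above 0 except that of Ccl6 in the libraries numbered 4, at -5.59. For Cxcr2 the wild-type libraries 2 and 4 held no read, so these 2 points depend on the pseudocount.

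Ratios between members within a library, taken on RPM + 1, gave no p past the threshold. The log2 ratio of Cxcr2 to Cxcr4 was -2.46, -2.86, -2.17 and -3.47 in knockout libraries 1 to 4, against -3.25, -3.69, -3.27 and -3.32 in wild-type libraries 1 to 4, a difference of 0.64 (exact permutation p = 0.114, adjusted over 3 ratios 0.343, two-sided; the smallest p that 4 against 4 allows is 0.0286). As wild-type libraries 2 and 4 held no read of Cxcr2, their ratios come from the pseudocount and Cxcr4 alone. The order of the libraries is therefore not read from them, and the difference moved with the pseudocount, to -0.36 with 5 RPM and 2.61 with 0.1 RPM. The log2 ratio of Ccl3 to Ccl4 was 2.03 to 2.97 in knockout and 1.81 to 2.58 in wild type, a difference of 0.21 (exact permutation p = 0.429, adjusted 0.643). That of Ccl6 to Ccl9 differed by -0.64 (exact permutation p and adjusted p = 0.914), and by 1.63 without both libraries numbered 4.

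For each member, the genes with the most similar course over the 8 libraries were found from log2(RPM + 1) values centred on their mean, by the root mean square difference. This centring keeps the difference between the groups, so genes with a like fold change tend to come out close. Shared regulation was not tested. Among the members, Ccr1 was closest to Cxcr4 (0.31) and to Ccl9 (0.31), and Ccl3 was closest to Ccl4 (0.37). Beyond the members, Cxcl2 was nearest to the metalloproteinase genes Mmp12 (0.69) and Mmp13 (0.70), Ccl3 to Adora2b (0.31) and Atf3 (0.35), and Ccl4 to Pilrb1 (0.27) and Cd53 (0.34). Ccl9 was nearest to Cfp (0.12) and C3ar1 (0.15), Ccr1 to Itm2b (0.14) and Rap1gap2 (0.15), Cxcr2 to Itga1 (0.22) and Dnmt3l (0.23), and Cxcr4 to Dhrs7 (0.13) and Dgkg (0.14). Ccl6 had no near match: Rps19 (1.11) and Nudt3 (1.14) were its closest. Rps19 had 560 RPM in wild-type library 4 and 18.9 to 39.9 RPM in the other 7, which came from 1 junction with 9503 reads there and 1 to 4 elsewhere.

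Most other genes of the chemokine system that were tested did not pass. Of 102 other genes of chemokines, their receptors, other chemoattractant receptors and the signalling behind them, 72 had a junction and 50 were tested, of which 9 passed as higher and 3 as lower. Over all genes tested the shares were 8.49% higher and 12.1% lower. The 50 genes had a median log2 fold change of 0.20, against -0.07 over all genes tested. Among 7 tested chemokines, Cxcl3, in the same gene group as Cxcl2 and also a ligand of Cxcr2, was the only one to pass. It had 21.4, 46.7, 12.8 and 3.92 RPM in knockout libraries 1 to 4, against 1.38, 0.796, 0 and 0.112 RPM in wild-type libraries 1 to 4 (log2 fold change 3.47, SE 0.64, adjusted p = 0.0096). With an average of 0.573 RPM in wild type, Cxcl3 entered the test only through the knockout libraries. Every knockout library was above every wild-type library, and knockout library 4 was again the lowest of its group. Ppbp, another Cxcr2 ligand, averaged 1.06 ± 0.375 RPM in knockout and 3.99 ± 3.73 RPM in wild type (SD, n = 4 each; adjusted p = 0.18). Ccl5, a ligand of Ccr1, averaged 11.7 ± 8.63 RPM in knockout and 6.76 ± 2.77 RPM in wild type (log2 fold change 0.56, adjusted p = 0.45), and Ccl7, also a ligand of Ccr1, 2.20 ± 2.91 and 0.187 ± 0.166 RPM (1.06, adjusted p = 0.19). Cxcl12, the ligand of Cxcr4, and Cxcl1 and Cxcl5, ligands of Cxcr2, were not analysed here.

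Of 3 tested chemokine receptors outside the 8 genes, Cxcr5, which guides lymphocytes to follicles, passed as lower, with 0 to 0.231 RPM in knockout and 0.582 to 4.46 RPM in wild type (log2 fold change -1.57, SE 0.40, adjusted p = 0.028). Cxcr5 averaged 0.12 RPM in knockout and 2.75 RPM in wild type, so it entered the test only through the wild-type libraries. Its call ended without knockout library 1, 2 or 3 or wild-type library 1 or 2 (adjusted p 0.061 to 0.072) and without both libraries numbered 4 (0.051). Of 5 tested receptors for other chemoattractants, 2 passed as higher. C3ar1, the receptor of complement fragment C3a, averaged 7.89 ± 2.06 RPM in knockout and 2.93 ± 1.23 RPM in wild type (SD, n = 4 each; log2 fold change 1.20, SE 0.26, adjusted p = 0.016). Ltb4r1, the leukotriene B4 receptor, averaged 35.7 ± 17.1 RPM in knockout and 8.65 ± 2.51 RPM in wild type (1.78, SE 0.45, adjusted p = 0.028). The call was lost on leaving out any single library other than knockout library 4 (0.054 to 0.076).

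Of 35 tested genes of receptor signalling and desensitisation, 6 passed as higher and 2 as lower. Of the 4 tested receptor kinases, which phosphorylate active receptors and end their signal, 2 passed as higher and 1 as lower, and Grk6 did not pass (283 ± 35.2 RPM in knockout and 303 ± 13.2 RPM in wild type, SD, n = 4 each, adjusted p = 0.50). Grk2 averaged 359 ± 23.6 RPM in knockout and 265 ± 14.9 RPM in wild type (SD, n = 4 each; log2 fold change 0.44, SE 0.08, adjusted p = 0.0078), and Grk5 11.5 ± 4.15 and 4.95 ± 0.435 RPM (1.02, adjusted p = 0.016). Grk3 was lower, at 69.4 ± 11.4 RPM in knockout and 116 ± 17.8 RPM in wild type (-0.74, adjusted p = 0.015), though its most-read junction by itself gave 0.052. Pik3cg, the lipid kinase that Gβγ activates, averaged 154 ± 15.9 RPM in knockout and 118 ± 4.84 RPM in wild type (0.37, adjusted p = 0.023), and the phospholipase Plcb2 536 ± 66.7 and 398 ± 34.1 RPM (0.43, adjusted p = 0.026). The Pik3cg call ended without wild-type library 2, 3 or 4 (0.0506 to 0.0618) and from its most-read junction alone (0.060), and that of Plcb2 without knockout library 1 or 3 or wild-type library 1, 3 or 4 (0.0502 to 0.0742). Dock2 and Rgs1 also passed as higher and Rgs18 as lower, and each lost its call in 7 or more of 24 alternatives.

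Across the alternatives the calls of Cxcl2, Ccl3, Ccl9, Cxcr2 and Cxcr4 held in every one run, those of Ccl4 and Ccr1 did not, and Ccl6 passed in 1.

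**Figure D5:**
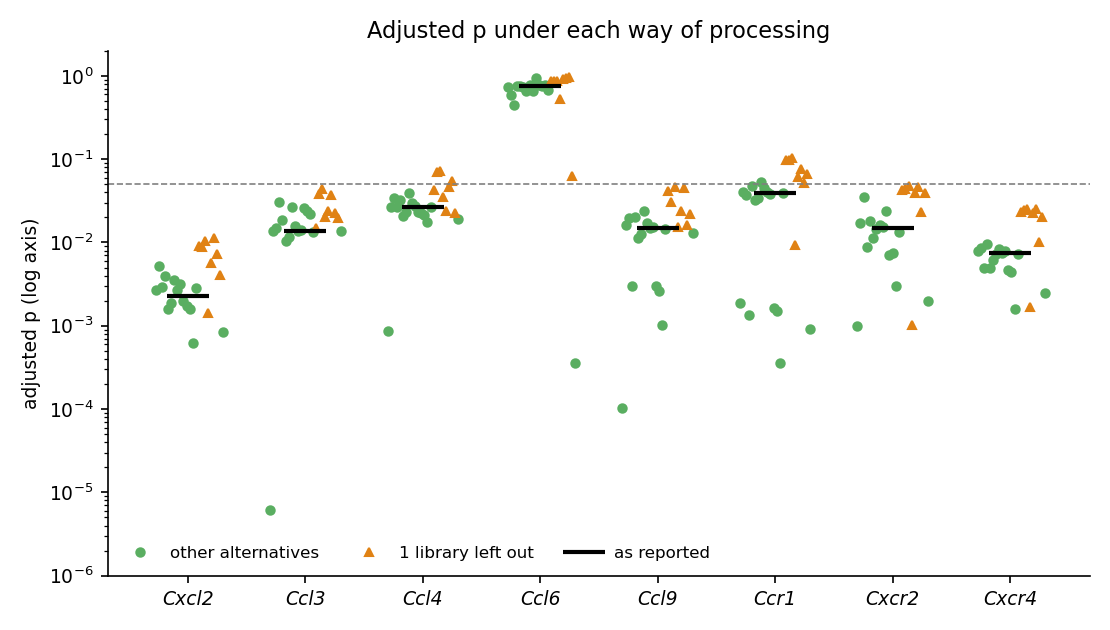
Adjusted p on a log axis for each gene under each way of processing: as reported (black bar), with 1 library left out (orange triangles) and under the other alternatives (green circles). Below the axis lie 2 values of DESeq2, 5.49e-15 for Cxcl2 and 5.14e-07 for Cxcr4. The dashed line is the threshold of 0.05. Ccr1 has 8 alternatives above the line and Ccl4 has 3, and Ccl6 has 1 below it.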

How the data were processed

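The deposited table holds a normalised signal for 134051 exon junctions of 13378 genes in 8 libraries, with AltAnalyze junction identifiers per the file headers. The tools named are Trimmomatic 0.39 and kallisto, and the build is mm10, per the submitters' processing notes. How reads were aligned, which annotation was used and how junctions were filtered is not given in the sources used here. Each strand-specific library was made from 2 ug of total RNA, per the labels' protocols. Tested on the values, each deposited signal was the junction's reads plus 1, divided by a length of 60 nt and by the library's total, and a junction without reads stood at 0.854 in every library. Inverting this gave whole reads for 100% of values above the floor, within 0.001 of a read. Reads were summed per gene and scaled to reads per 1000000 (RPM), so a fragment over 2 junctions was counted at both. Genes without introns were not analysed.

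The fit was limma 3.58.1 (R 4.3.3) with trend and robust moderation on log2(RPM + 1), for the 11003 genes that averaged 1 RPM or more, with no term for the library number. As the average was over all 8 libraries, a gene could enter through 1 group alone. Cxcr2 and Cxcl3 did so through knockout and Cxcr5 through wild type. In limma without the filter these genes still passed (adjusted p 0.016, 0.011 and 0.028). Fold changes on the log2(RPM + 1) scale understate those of low genes. On the recovered whole reads, edgeR 4.0.16 called 1054 genes higher and 967 lower and DESeq2 1.42.0 called 1633 and 1395, beside 934 and 1330 in limma and 1087 and 1017 with TMM scaling. The other alternatives were other pseudocounts and filters, limma without trend and robust moderation, the most-read junction alone, low junctions left out, the replicate block, and leaving out each library or both libraries numbered 4. Chosen after seeing the data were the sum of deposited values, edgeR with the block and the block with TMM scaling. A junction value of 6 reads or fewer was called low where 100 or more were predicted from the rest of its gene. This rule, too, was chosen after seeing the data, in earlier work. It touched 7666 junctions of 3030 genes and 0 values of the 8 genes. The prediction used the junction's share in these same libraries, so the rule does not find junctions that are low in all of them.

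The labels number the libraries, and their pairing by number was inferred from the values. Same-numbered libraries deviated together from their group means (correlations of 0.316, 0.293, 0.356 and 0.550). The highest correlation between knockout and wild-type libraries of different numbers was 0.146. No library was a duplicate, with a chi-square per degree of freedom of at least 29.4 between libraries of a group. Ratios were compared by exact permutation tests.

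The 8 genes, the gene lists and the tests were chosen with earlier results of these data known. The 8 genes and Cop1 were always named. From each of 4 lists of the chemokine system, up to 5 genes past the threshold with the smallest adjusted p were named with values, and others by name, or with their level where they are a ligand or receptor of one of the 8. The 2 genes most like each member were named from tested genes with a symbol, leaving out symbols that end in Rik or are Gm plus digits. The limma, edgeR and DESeq2 fits were tried on simulated counts, with the same dispersion for all genes and no pairing of libraries, unlike these data. Sequence overlap between transcripts was counted in runs of 31 bases of the Gencode M21 transcripts.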

Additional observations from a re-analysis of the deposited data

Results flagged for a closer look

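Each of the 8 genes was screened in both groups, at the highest and at the lowest library. In 3 instances a library lay farther from the rest of its group of 4 than Dixon's 95% critical value allows for the gap over the range, which chance gives in about 1 in 20 groups. Ccl6 in knockout library 4 was at 1.34 RPM, below 11.5 to 13.8 RPM in knockout libraries 1 to 3 (gap over range 0.908). Ccl6 in wild-type library 4 was at 112 RPM, above 0.688 to 1.24 RPM in wild-type libraries 1 to 3 (0.933). Ccr1 in knockout library 4 was at 32.6 RPM, below 66.9 to 72.8 RPM in knockout libraries 1 to 3 (0.895). All 3 are in libraries numbered 4, and what sets these libraries apart was not tested.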

How the results depend on the processing

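Over all alternatives run, the log2 fold change stayed positive and past the threshold for Cxcl2 (3.90 to 5.08), Ccl3 (1.32 to 2.09), Ccl9 (1.09 to 1.51), Cxcr2 (0.90 to 4.66) and Cxcr4 (1.26 to 1.71). It stayed positive for Ccl4 (1.21 to 1.89) and Ccr1 (0.92 to 1.46), which lost the call in 3 and 8 of 24 alternatives. Ccl6 turned to -1.42 in edgeR and -1.40 in DESeq2, which are fitted to reads and not to log2 values, and its other values ran up to 2.80. Of the 8 genes, 7 passed with all libraries, 6 with a minimum of 10 RPM, where Cxcr2 was not tested, 6 from the most-read junction alone, 8 without both libraries numbered 4, and 5 to 7 with 1 library left out. With the replicate block, the pairing by library number, 7 of the 8 and 3084 of all genes passed (2264 without it), and 3763 with low junctions also left out. With 1 library left out, 1215 to 2991 genes passed. The other chemokine system genes gave 12 calls, 18 with the block, 19 in DESeq2, 21 with the block and low junctions left out, 22 in edgeR with the block, 20 with the block and TMM scaling, and 6 to 18 with 1 library left out. The difference between knockout and wild type in the log2 ratio of Cxcr2 to Cxcr4 turned to -0.36 with a pseudocount of 5 RPM. That in the ratio of Ccl6 to Ccl9 turned to 1.63 without both libraries numbered 4 and ran from -1.37 to 1.07 with 1 library left out. With fewer than 4 libraries a group these ratios are values with no test. Except where a setting leaves out libraries or genes or fits reads, the cause was not tested. Depth limits Cxcr2 most, with 0 to 15 reads in each wild-type library.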
